A study of Mus musculus with 30 samples.

Results

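Described here are 43 replication and mitosis genes, taken as a list of names and followed across 2 tissues, 2 genotypes and 2 treatments. The list was chosen with earlier results of these data known. Of the 43 genes, 42 had a probe set annotated to a single gene symbol and were measured, among 17781 such genes. Ccnb1, a B-type cyclin, had no such probe set and is not analysed here. Each gene was read from the probe set with the highest mean in the tissue.

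Muscle and kidney were taken from 15 mice aged 6 weeks, 1 array per tissue and animal. Mice were wild type or Kif3aΔTub, in which a Cre under the Ksp-cadherin promoter, active in kidney tubule epithelium, deletes the kinesin-2 subunit Kif3a that cilia need. Their treatment was either PBS, called untreated here, or the trap sActRIIB-Fc, a soluble type IIB activin receptor fused to an Fc that captures activins and their relatives, given into the peritoneum at 10 mg/kg weekly in 2 injections. Each tissue had 3 wild-type PBS, 4 wild-type trap, 4 mutant PBS and 4 mutant trap arrays. The promoter limits the deletion to tubule cells, so muscle in the mutants is not a target of the Cre. The design compared untreated mutants with wild type and asked what blocking activins changed.

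Cells that divide first load the Mcm2-7 helicase on DNA with the help of Cdc6, then make deoxynucleotides and copy the genome around the Pcna clamp. Cdk1 with cyclins A and B drives entry into mitosis, where kinases, motors and kinetochore proteins build and check the spindle until the anaphase ubiquitin ligase, acting through Cdc20 and Ube2c, ends the phase. Most of these transcripts are present mainly in cycling cells, so their level in a tissue is widely used as a measure of proliferation. In bulk tissue fewer cycling cells and less RNA per cycling cell cannot be told apart.

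Levels are log2 intensities and changes are differences of log2 intensities ± SE, with adjusted p values over all 17781 genes of the tissue from limma. A gene was called at an adjusted p under 0.05. Groups are given as mean ± SD. The median of an array was 5.94 to 6.06 for muscle and 6.09 to 6.24 for kidney. Muscle-fibre genes averaged 13.87 or more on muscle arrays and 4.91 or less on kidney arrays, so the tissues matched their labels. Kif3a was at 7.83 ± 0.07 in untreated wild-type kidneys (n = 3) and at 7.33 ± 0.12 in untreated mutants (n = 4, change -0.50 ± 0.15, adjusted p = 0.011). In kidneys given the trap it was at 7.65 ± 0.22 and 7.63 ± 0.30. One untreated wild-type kidney, replicate 1, had a higher mean over the 42 genes, 7.16, than the other two of its group, at 6.54 and 6.53. One wild-type muscle with trap, replicate 4, stood at 7.43 against 6.59, 6.26 and 5.50 in its group. For the 42 genes, counts and calls within a tissue that turn on either array are given with and without it. Other gene lists and the fit of both tissues were not refitted without these arrays. Shares over all genes are from the fits with all arrays.

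In kidney the trap was followed by lower levels of many of these genes in wild type and not in mutants. The trap effect in mutants minus the trap effect in wild type was called higher for 21 of the 42 genes and lower for 0, where 0.664% of all genes were called higher. The median of this difference was 1.27 over the 42 genes and 0 over all genes, and 41 of the 42 differences were above 0. Without untreated wild-type replicate 1 the median over the 42 genes was 1.03. The called genes were Mcm3, Rrm2, Tk1, Ccna2, Ccnb2, Cdk1, Aurka, Bub1, Ttk, Pbk, Kif11, Kif20a, Nusap1, Cenpf, Birc5, Cdca8, Cdc20, Ube2c, Mki67, Top2a and Esco2. They comprise 3 of the 12 replication genes, with differences between 1.07 and 1.56, and 18 of the 30 mitosis genes, between 1.20 and 2.85. Replication genes here are those of the licensing and nucleotide groups. All others count as mitosis genes, among them Esco2 and Ccna2, which also act in S phase. The count was 14 when untreated wild-type replicate 1 was left out, which ended the calls of Mcm3, Ccna2, Aurka, Ttk, Cdca8, Ube2c and Mki67, and 13 when mutant trap replicate 4 was. All comparisons within a tissue share arrays, so they are not independent of each other.

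**Figure D1:**
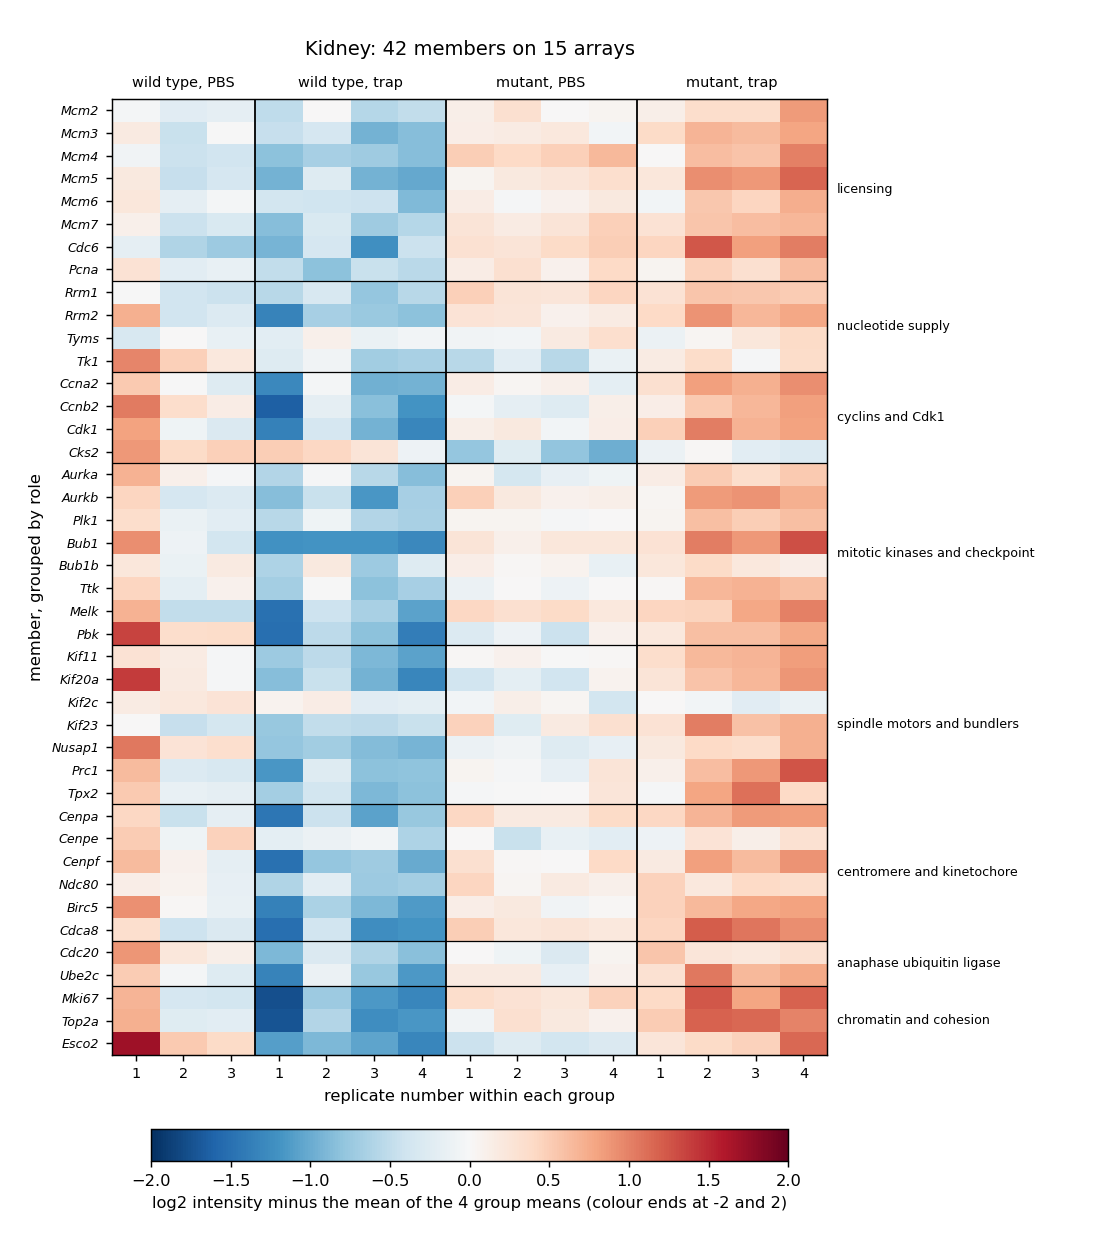
Log2 intensity of 42 genes (rows, grouped by role) on the 15 kidney arrays (columns, by group), as the difference from the mean of the 4 group means of that gene. Most genes are low (blue) in wild type given the trap and high (red) in mutants given the trap, and the untreated wild-type replicate 1 is higher than the other two of its group.

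Esco2 had the highest fitted difference. It encodes an acetyltransferase that sets sister-chromatid cohesion during replication. Its level was 5.68, 4.52 and 4.37 in untreated wild-type kidneys and 2.89, 3.09, 2.93 and 2.68 with trap. In untreated mutants it was 3.56, 3.74, 3.63 and 3.70, and with trap 4.24, 4.37, 4.45 and 5.14. The wild-type arrays with trap lay below all untreated ones, and the mutant arrays with trap above all untreated ones. The trap effect was -1.96 ± 0.26 in wild type (adjusted p = 0.00502) and 0.90 ± 0.24 in mutants (adjusted p = 0.0646), and the difference was 2.85 ± 0.35 (adjusted p = 0.00172). The gene is a weak signal, at percentile 13.8 of gene levels in kidney, with a mean of 3.93 over kidney arrays. That is under the 4.16 mean of muscle-fibre genes there, a reference taken over 7 genes with Pvalb left out. Esco2 arrays in wild type with trap lay below even the lowest of those genes, at 3.29, so neither the size nor the rank of its difference is exact.

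Kif11, the motor that pushes spindle poles apart, had the smallest SE among the called differences. Wild-type kidneys were at 5.79, 5.66 and 5.47 untreated and at 4.77, 4.97, 4.60 and 4.42 with trap. Mutants were at 5.52, 5.58, 5.49 and 5.51 untreated and at 5.84, 6.14, 6.18 and 6.33 with trap. Neither genotype's arrays overlapped between treatments. Kif11 fell by 0.95 ± 0.13 in wild type (adjusted p = 0.00509) and rose by 0.60 ± 0.12 in mutants (adjusted p = 0.017), and it was the only one of the 42 genes called in mutants. The difference of 1.55 ± 0.18 had an adjusted p of 0.000973. Kif11's rise in mutants was not called without mutant trap replicate 4 (0.53, adjusted p = 0.0513).

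**Figure D2:**
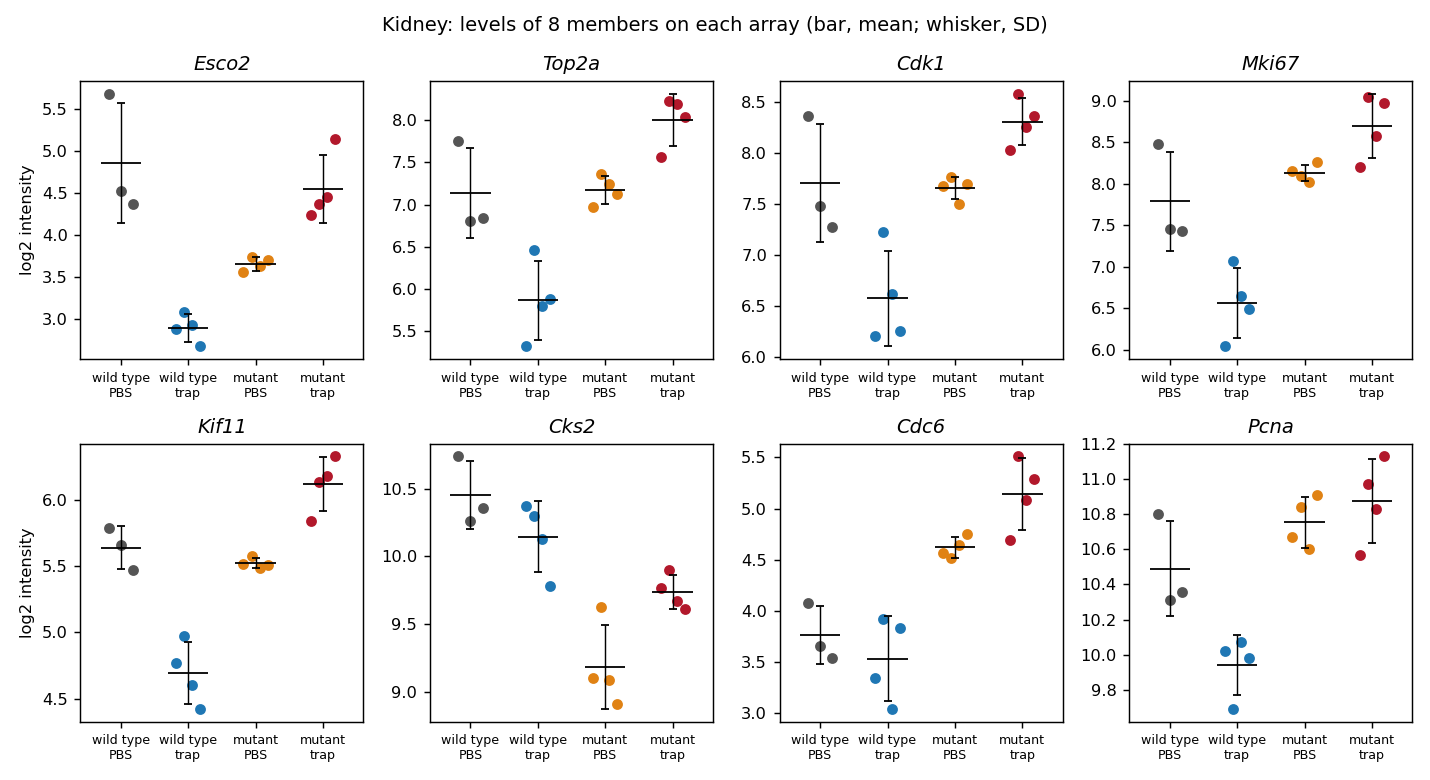
Log2 intensity of 8 genes on each kidney array (points), with group mean (bar) and SD (whisker), for 3 or 4 arrays a group. By group mean, Esco2, Top2a, Cdk1, Mki67 and Kif11 are lower with trap in wild type and higher with trap in mutants. Of these only Kif11 was called in mutants, and the Mki67 arrays of mutants overlap. Cks2 is lowest in untreated mutants and Cdc6 is higher in both mutant groups.

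Among the chromatin genes, Top2a, the topoisomerase that untangles replicated chromosomes, stood at 7.13 ± 0.54 in untreated wild type (n = 3), 5.87 ± 0.47 with trap (n = 4), 7.17 ± 0.16 in untreated mutants and 8.01 ± 0.31 in mutants with trap. Its difference of trap effects was 2.10 ± 0.35 (adjusted p = 0.00939). Mki67, which coats mitotic chromosomes and encodes the Ki-67 antigen, was at 8.48, 7.46 and 7.43 in untreated wild type and at 6.04, 7.07, 6.65 and 6.49 with trap. In mutants it was at 8.15, 8.09, 8.02 and 8.26 untreated and at 8.20, 9.04, 8.58 and 8.97 with trap. Wild-type arrays did not overlap between treatments, while in mutants the lowest treated array lay among the untreated ones. The difference for Mki67 was 1.80 ± 0.36 (adjusted p = 0.0237) and was not called without untreated wild-type replicate 1 (1.45, adjusted p = 0.0626).

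Of the cyclins and their kinase, Ccnb2, a B-type cyclin, differed by 2.10 ± 0.38 (adjusted p = 0.0162) and Ccna2, the cyclin of S phase and G2, by 1.56 ± 0.33 (adjusted p = 0.0321), a call that was lost without untreated wild-type replicate 1. Cdk1, the kinase that starts mitosis, was at 8.36, 7.48 and 7.27 in untreated wild type, and at 6.20, 7.22, 6.61 and 6.25 with trap. In mutants Cdk1 was at 7.67, 7.76, 7.50 and 7.69 untreated and at 8.03, 8.58, 8.25 and 8.36 with trap. The groups did not overlap in either genotype, and the difference for Cdk1 was 1.79 ± 0.34 (adjusted p = 0.019). Cks2, a small Cdk-binding subunit, differed by 0.87 ± 0.24 and was not called (adjusted p = 0.0902).

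Among the mitotic kinases, Pbk, a kinase active in mitosis, differed by 2.47 ± 0.35 (adjusted p = 0.00382). Bub1, a kinase of the spindle checkpoint, was at 3.86, 3.87, 3.87 and 3.77 in the wild-type arrays with trap, against 6.00, 4.96 and 4.69 untreated. In mutants Bub1 was at 5.32, 5.16, 5.29 and 5.29 untreated and at 5.36, 6.08, 5.93 and 6.36 with trap. In each genotype the treated and untreated arrays did not overlap, in opposite directions. The difference for Bub1 was 2.04 ± 0.34 (adjusted p = 0.00939), with the treated wild-type arrays under the 4.16 mean of muscle-fibre genes. The spindle kinase Aurka (1.29 ± 0.26, adjusted p = 0.0237) and the checkpoint kinase Ttk (1.20 ± 0.27, adjusted p = 0.0399) were also called, and neither was without untreated wild-type replicate 1. Treated wild-type kidneys had Ttk at 4.07 ± 0.36, near that reference. Aurkb, Plk1, Bub1b and Melk had differences between 0.65 and 1.14 that were not called.

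In the spindle group Kif20a, a motor of cytokinesis, differed by 2.21 ± 0.38 (adjusted p = 0.0116) and Nusap1, a microtubule-bundling protein, by 1.94 ± 0.22 (adjusted p = 0.000973). Kif23, Prc1 and Tpx2 had differences of 0.75, 1.46 and 1.27 that were not called. Kif2c, a microtubule-depolymerising motor, had 0.23 ± 0.16, and its 3 other probe sets gave 1.21, 0.69 and 0.02, so its probe sets disagree. At the centromere Birc5, a subunit of the chromosomal passenger complex, differed by 1.87 ± 0.29 (adjusted p = 0.00729). The kinetochore protein Cenpf (1.63 ± 0.30, adjusted p = 0.0179) and the passenger subunit Cdca8 (1.58 ± 0.33, adjusted p = 0.0308) were called. The Cdca8 call was lost without untreated wild-type replicate 1 (1.35, adjusted p = 0.104). In the same group Cenpa, Cenpe and Ndc80 had uncalled differences of 1.26, 0.89 and 0.73. Both anaphase ligase genes were called, Cdc20 at 1.48 ± 0.24 (adjusted p = 0.00934) and Ube2c at 1.53 ± 0.35 (adjusted p = 0.0398). The Ube2c call was lost without untreated wild-type replicate 1 (1.31, adjusted p = 0.136) and in 12 of 24 alternative settings in all.

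The licensing genes had smaller differences. Only Mcm3, a helicase subunit, was called, at 1.07 ± 0.22 (adjusted p = 0.0275). No licensing gene was called without untreated wild-type replicate 1 or with the 18S covariate described later. The 8 licensing genes, a group in which the clamp gene Pcna was counted, had a median difference of 0.71. Mcm2, Mcm4, Mcm5, Mcm6, Mcm7 and Cdc6 had uncalled differences between 0.52 and 1.18. Mcm2 was at 8.53, 8.35 and 8.40 in untreated wild type and at 8.06, 8.58, 8.01 and 8.08 with trap, which overlap. In mutants Mcm2 was at 8.69, 8.89, 8.58 and 8.62 untreated and at 8.69, 8.92, 8.92 and 9.42 with trap, which also overlap. The difference for Mcm2 was 0.54 ± 0.22 (95% interval 0.06 to 1.03, adjusted p = 0.281). For Pcna the difference was 0.67 ± 0.20 (95% interval 0.23 to 1.11, adjusted p = 0.122). In the nucleotide group Tk1, thymidine kinase, differed by 1.56 ± 0.26 (adjusted p = 0.00939) and Rrm2, the regulated subunit of ribonucleotide reductase, by 1.40 ± 0.30 (adjusted p = 0.0322). Rrm1, the other subunit, had 0.40 ± 0.17 and was not called. Tyms, thymidylate synthase, was the single gene below 0 (-0.05 ± 0.18) and lay at 3.84 or less on all kidney arrays, under the 4.16 mean of muscle-fibre genes there. The difference between licensing and mitosis genes was not tested.

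A total of 25 of the genes had further probe sets, 39 in all. In kidney 38 of these 39 gave a difference of trap effects above 0, from -0.11 to 1.99. The second Top2a probe set, with a lower mean level of 5.49, gave 0.29.

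**Figure D3:**
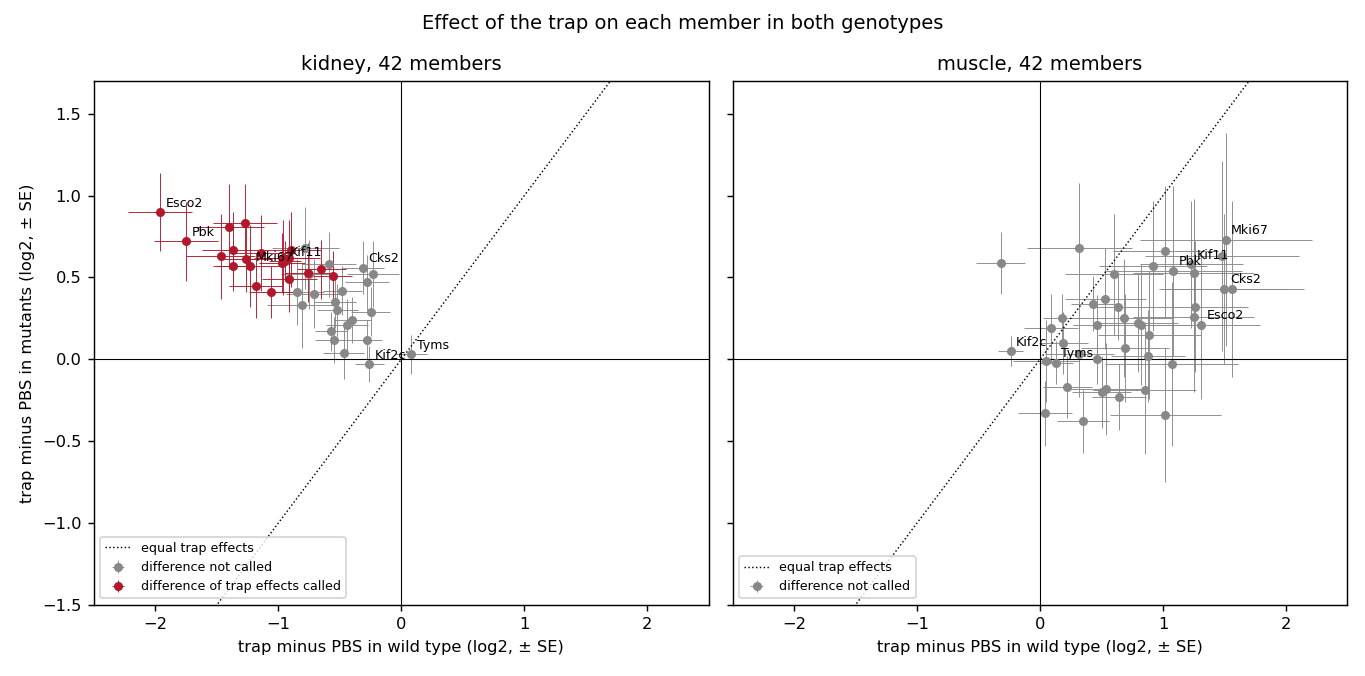
Trap minus PBS in wild type (x) against trap minus PBS in mutants (y), in log2 ± SE, for 42 genes in kidney (left) and muscle (right). In kidney the 21 genes with a called difference (red) lie left of 0 and above 0, and in muscle no difference was called. Both axes of a panel come from separate arrays.

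Taken by genotype, the trap lowered 14 of the 42 genes in wild-type kidney and raised 0, where 0.551% of all genes were called lower. These were Tk1, Ccnb2, Cdk1, Bub1, Pbk, Kif11, Kif20a, Nusap1, Cenpf, Birc5, Cdc20, Mki67, Top2a and Esco2. The median change was -0.77 over the 42 genes and 0 over all genes. For 22 of the 42, or 52.4%, all wild-type arrays with trap lay below all untreated ones, as they did for 7.27% of all genes. After Esco2, the largest falls were those of Pbk (-1.75 ± 0.26, adjusted p = 0.00763), Ccnb2 (-1.47 ± 0.28, adjusted p = 0.025) and Kif20a (-1.40 ± 0.28, adjusted p = 0.0275). Without untreated wild-type replicate 1 the count fell to 5, namely Birc5, Esco2, Kif11, Nusap1 and Pbk, and the median to -0.51. Without untreated wild-type replicate 2 it was 6, without wild-type trap replicate 3 it was 9 and without wild-type trap replicate 4 it was 6. Without wild-type trap replicate 2, the highest of its group at a mean of 6.29, the count was 22.

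In mutant kidney the trap raised Kif11 alone, 1 of 42, where 1.07% of all genes were called higher. The median change was 0.52 over the 42 genes and -0.01 over all genes, and 41 of 42 changes were above 0. For 21 of the 42, or 50%, all mutant arrays with trap lay above all untreated ones, as they did for 3.61% of all genes. The changes of Top2a (0.83 ± 0.24, adjusted p = 0.0808) and Cdk1 (0.65 ± 0.23, adjusted p = 0.172) were not called. Without untreated wild-type replicate 1, which enters this comparison only through the shared estimate of the spread, 7 genes were called higher, namely Birc5, Bub1, Esco2, Kif11, Kif20a, Nusap1 and Top2a. Without wild-type trap replicate 2 it was 3 genes, and without mutant trap replicate 4 it was 0.

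The signal of the 18S ribosomal RNA control probe set also moved with the trap in kidney. It lay between 11.87 and 12.04 in untreated wild type, 10.95 and 11.56 in wild type with trap, 11.79 and 12.62 in untreated mutants, and 10.32 and 11.29 in mutants with trap. It was lower with trap in both genotypes. The median change of the 42 genes was -0.77 in wild type and 0.52 in mutants. Every treated kidney array lay below every untreated one in 18S signal, so a fit with both separates the signal from the trap poorly. The part of the 18S signal in these results was not tested. With this signal as a covariate the difference of trap effects was called for 11 of the 42 genes (Birc5, Bub1, Cdc20, Cks2, Esco2, Kif11, Kif20a, Nusap1, Pbk, Tk1 and Top2a), with a median of 1.24, and the trap effect for 0 genes in either genotype, with medians of -0.79 and 0.46. The actin 3 prime minus 5 prime signal, a measure of RNA integrity, lay between 1.38 and 1.60 in wild-type kidneys, between 0.76 and 1.37 in untreated mutants and between 0.61 and 1.64 in mutants with trap.

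**Figure D4:**
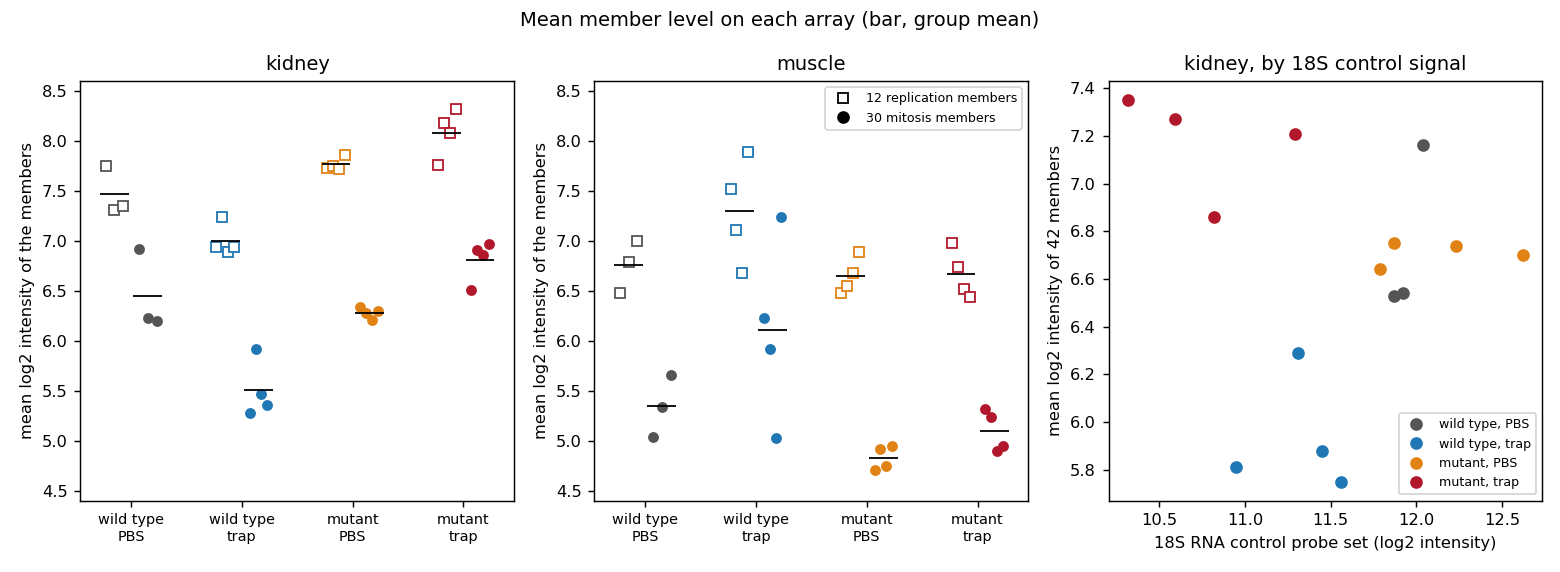
Left and middle, mean log2 intensity of 12 replication genes (open squares) and 30 mitosis genes (filled circles) on each kidney and muscle array, with group means (bars). Right, mean of the 42 genes on each kidney array against its 18S control signal. Wild-type kidneys with trap lie at 5.75 to 6.29 and mutant kidneys with trap at 6.86 to 7.35. Both groups have lower 18S signals than untreated kidneys.

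Between the genotypes under trap nearly all of the genes differed. Under trap 39 of the 42 genes were higher in mutant kidneys and 1, Cks2, was lower, where 22.2% of all genes were called higher and 24.2% lower. The median was 1.36 over the 42 genes and -0.06 over all genes. For 37 of the 42, or 88.1%, every mutant array lay above every wild-type array, as it did for 18.6% of all genes. Top2a was 2.14 ± 0.24 higher, a 4.41-fold ratio (adjusted p = 3.71e-06), Mki67 2.13 ± 0.25 (4.39-fold, adjusted p = 5.56e-06), Bub1 2.09 ± 0.23 (adjusted p = 3.55e-06, with wild type near background) and Cdca8 2.00 ± 0.23 (adjusted p = 4.72e-06). Among licensing genes Cdc6 was 1.61 ± 0.20 higher (adjusted p = 9.84e-06, with wild type under 4.16), Pcna 0.94 ± 0.14 (adjusted p = 5.1e-05) and Mcm2 0.81 ± 0.15 (adjusted p = 0.000419). The change of Cks2 was -0.41 ± 0.16 with an adjusted p of 0.0494, and this call was lost with the 18S covariate (-0.15, adjusted p = 0.532) and without mutant trap replicate 4 (-0.36, adjusted p = 0.117). Tyms (0.20 ± 0.12) and Kif2c (-0.05 ± 0.11) were not called.

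Without trap the genes had no common direction between genotypes. Under PBS 5 genes were higher in mutant kidneys (Mcm4, Mcm7, Cdc6, Rrm1 and Kif23) and 8 lower (Tk1, Cks2, Pbk, Kif20a, Nusap1, Cenpe, Cdc20 and Esco2), where 24.9% of all genes were called higher and 26.7% lower. These shares of the 42 genes are below those of all genes. The median was 0.01 and turned to -0.06 after quantile normalization and -0.08 after median centring. All 8 licensing genes had changes above 0, with 3 called higher and a median of 0.34, while the 30 mitosis genes had a median of -0.06 with 1 called higher and 7 lower. Cdc6, the helicase loader, was at 4.08, 3.66 and 3.54 in untreated wild type and at 4.57, 4.52, 4.64 and 4.75 in untreated mutants, which do not overlap (0.86 ± 0.21, adjusted p = 0.00343). The wild-type values of Cdc6 lie under the 4.16 mean of muscle-fibre genes. Cks2 was at 10.74, 10.26 and 10.36 in wild type and at 9.10, 9.63, 9.09 and 8.91 in mutants, which do not overlap (-1.27 ± 0.17, adjusted p = 1.87e-05). Mki67 (0.34 ± 0.27, adjusted p = 0.3), Top2a (0.04 ± 0.26, adjusted p = 0.904) and Cdk1 (-0.05 ± 0.25, adjusted p = 0.882) were not called. Pcna (0.27 ± 0.15) and Mcm2 (0.27 ± 0.16) were not called either.

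The split between higher and lower genes was different without untreated wild-type replicate 1. Without it 11 genes were called higher in untreated mutants and 4 lower, and the median was 0.23. The higher genes then included Mcm5, Pcna, Rrm2, Melk, Cenpa and Mki67, and the lower ones were Cks2, Esco2, Nusap1 and Tk1.

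**Figure D5:**
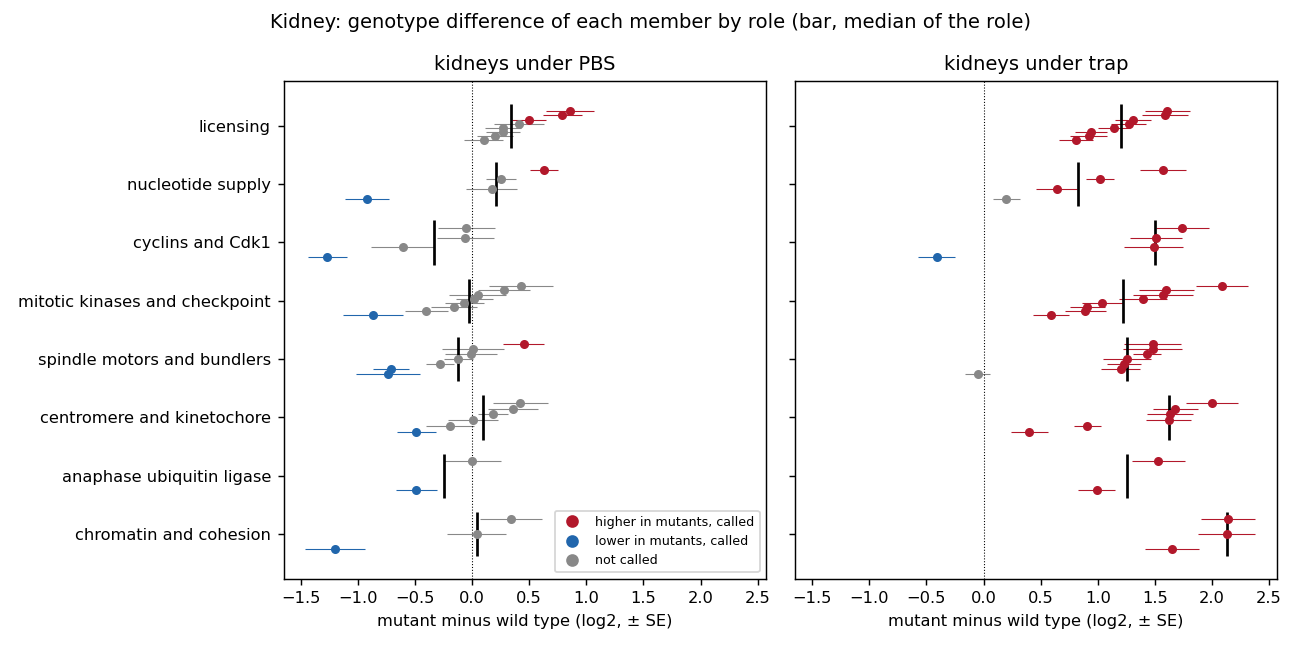
Mutant minus wild type in kidney (log2 ± SE) for each of 42 genes by role, under PBS (left) and trap (right), with the median of each role (bar). Under PBS called genes lie on both sides of 0, with 5 higher and 8 lower, and under trap 39 are called higher and 1 lower.

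The upstream sequences of some of these genes are shown because many of the genes were called together and regulators of the cell cycle bind short motifs near their starts. The motifs were chosen with the values known. RefSeq promoter windows (GRCm38.p6, 250 bases before to 50 after the start, both strands searched) matched 36 of the 43 genes. Tpx2, Aurkb, Ccna2, Kif20a, Mcm4, Esco2 and Pbk were not matched. The cell cycle homology region TTTGAA, bound by the DREAM complex in many mitosis genes, was found in 18 of 25 mitosis genes (72%) and 1 of 11 replication genes (9.09%), and in 18.1% of windows of 27025 genes. Before the start alone it was found in 8 of the 25 mitosis genes and in 4398 of the 27025 windows. The CCAAT box, bound by NF-Y, was found in 20 of 25 mitosis genes (80%) and 8 of 11 replication genes (72.7%), and in 37.9% of all windows. The E2F words TTTGGCGC, TTTCCCGC, TTTCGCGC and TTTGCCGC were found in 5 of 7 licensing genes and in Cdk1, and in 2.32% of all windows. A match is a run of letters, and binding was not measured.

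The 160 bases before the start of 6 genes follow, in the direction of transcription, with motifs in capitals. Top2a, Cdk1, Cdc20 and Kif11 had called differences of trap effects in kidney, and Mcm5 (1.18 ± 0.30, adjusted p = 0.0687) and Mcm6 (0.82 ± 0.23, adjusted p = 0.0985) did not.
Top2a (chr11:99024190-99024349, minus strand): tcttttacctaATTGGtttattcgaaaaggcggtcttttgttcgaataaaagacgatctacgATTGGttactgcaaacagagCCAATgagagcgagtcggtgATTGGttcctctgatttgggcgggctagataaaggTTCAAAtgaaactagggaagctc
Cdk1 (chr10:69352913-69353072, minus strand): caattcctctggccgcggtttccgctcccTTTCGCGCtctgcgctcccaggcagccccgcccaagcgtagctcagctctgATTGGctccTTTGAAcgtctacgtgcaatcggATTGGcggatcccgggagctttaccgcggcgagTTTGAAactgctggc
Cdc20 (chr4:118437344-118437503, minus strand): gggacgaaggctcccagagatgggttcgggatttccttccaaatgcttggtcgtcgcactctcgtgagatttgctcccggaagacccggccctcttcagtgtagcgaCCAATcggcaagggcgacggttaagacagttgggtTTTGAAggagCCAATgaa
Kif11 (chr19:37376222-37376381, plus strand): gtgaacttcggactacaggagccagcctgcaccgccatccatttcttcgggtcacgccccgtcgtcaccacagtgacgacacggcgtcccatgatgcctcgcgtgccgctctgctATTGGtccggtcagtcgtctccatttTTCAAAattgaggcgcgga
Mcm5 (chr8:75109349-75109508, plus strand): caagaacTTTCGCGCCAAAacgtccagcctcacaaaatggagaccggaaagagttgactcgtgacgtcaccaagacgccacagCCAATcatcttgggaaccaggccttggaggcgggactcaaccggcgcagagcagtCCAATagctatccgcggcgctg
Mcm6 (chr1:128359706-128359865, minus strand): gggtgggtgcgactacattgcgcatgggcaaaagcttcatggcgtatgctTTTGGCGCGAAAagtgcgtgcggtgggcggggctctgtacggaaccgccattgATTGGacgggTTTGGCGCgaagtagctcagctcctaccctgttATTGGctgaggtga
In capitals, TTTGAA or its reverse complement TTCAAA marks the cell cycle homology region, CCAAT or ATTGG the CCAAT box, and the longer runs the E2F words. The 4 mitosis genes each hold the homology region before the start, with 2 in Cdk1 and 1 in each of the others within the bases shown. Mcm5 and Mcm6 hold none there, and hold 2 and 3 E2F words. In both, an E2F word overlaps another on the opposite strand. Cdk1 holds both kinds. These 6 genes were picked by name, not by a rule. Other called genes with a window hold the homology region in it, except Bub1, Nusap1, Birc5, Tk1, Rrm2 and Mcm3. Other uncalled genes with a window lack it, except Mcm2, Plk1, Bub1b, Kif2c, Kif23, Prc1, Cenpa and Ndc80. Whether the motif goes with the call was not tested.

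Other cell cycle genes, in lists apart from the 43, gave these counts in kidney with all arrays included. Whether they hold without untreated wild-type replicate 1 was not tested. Of 52 other mitosis genes the difference of trap effects was called higher for 15 and lower for 0, with a median of 0.78. The largest were Hmmr, a spindle-associated hyaluronan receptor (1.83 ± 0.27, adjusted p = 0.00504), Shcbp1 (1.82 ± 0.33, adjusted p = 0.015) and the kinetochore subunit Nuf2 (1.81 ± 0.36, adjusted p = 0.0221). Of 31 other replication genes it was called for 1, Gmnn, the licensing inhibitor geminin (0.69 ± 0.16, adjusted p = 0.0415), with a median of 0.44. Of 19 G1 cyclins, kinases and E2F regulators and 6 genes of the G2 and mitosis transcription complexes it was called for 0, with medians of 0.21 and 0.17. Of 13 cell cycle inhibitors 1 was called lower, the stress gene Gadd45g (-1.76 ± 0.40, adjusted p = 0.0427).

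In wild-type kidneys with trap 9 of the 52 other mitosis genes fell and 0 rose, among them Cep55, a protein of the final cut between daughter cells (-1.36 ± 0.25, adjusted p = 0.0226). Ccnd1, cyclin D1, fell by 0.75 ± 0.14 (adjusted p = 0.023), and Gadd45g rose by 2.11 ± 0.29 (adjusted p = 0.00509). In mutant kidneys with trap 1 of the 52, the centromere gene Cenpi, rose. In untreated mutants 9 of 19 G1 genes and 6 of 13 inhibitors were higher and 0 lower, beside the 24.9% of all genes called higher there and 26.7% lower. They included Myc (2.10 ± 0.21, adjusted p = 8.07e-07), Cdk6, a G1 kinase (1.74 ± 0.10, adjusted p = 4.52e-09), and the Cdk inhibitors Cdkn2b (2.64 ± 0.24, adjusted p = 3.07e-07) and Cdkn1a (2.57 ± 0.34, adjusted p = 1.33e-05). Of the 52 other mitosis genes 11 were higher and 9 lower there, both below the shares over all genes.

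Markers of other cell types also differed between the mutant and wild-type kidneys. Under PBS 8 of 8 macrophage and myeloid genes were higher, with mean levels of 6.32 to 6.64 on wild-type and 9.38 to 9.81 on mutant arrays. With trap their means were 6.49 to 7.21 and 9.28 to 10.05. Fibroblast and pericyte genes were higher for 7 of 8, with means of 8.11 to 8.51 on the wild-type PBS arrays and 10.07 to 10.46 on the mutant ones. Proximal tubule genes were lower for 8 of 8, with means of 12.21 to 12.25 on the wild-type PBS arrays and 8.30 to 10.12 on the mutant ones. Collecting duct genes were higher for 8 of 8, from 8.19 to 8.55 and 10.62 to 11.05. In the difference of trap effects 3 of 8 collecting duct genes were called lower, and 0 of 8 genes were called in each of the proximal tubule, macrophage and fibroblast lists, with medians of 1.03, -0.41 and -0.16. Erythroid precursor genes, 4 measured, were lower for 4 of 4 under PBS, with means of 7.99 to 8.44 on wild-type and 6.31 to 6.98 on mutant arrays, and 1 was called higher in the difference of trap effects. Adipocyte genes, 4 measured, had a mean of 6.84 ± 1.64 in untreated mutants and 8.85 ± 0.78 with trap, and 0 were called. In mutants the trap raised 1 of 8 proximal tubule genes and 2 of 6 loop of Henle and distal tubule genes and lowered 2 of 8 collecting duct genes. The part of these cell types in the results for the 42 genes was not tested.

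In muscle the same genes were weaker and more scattered. Of the 42, 10 lay above the median gene of muscle, against 18 in kidney, and 7 lay at or below the 4.83 mean of proximal tubule genes in muscle. These were Cdc6, Tyms, Aurkb, Bub1, Ttk, Kif20a and Esco2. The 4.83 is taken over 7 proximal tubule genes, with Aqp1 left out. The SD within groups had a median of 0.53 over the 42 genes in muscle and 0.30 in kidney, against 0.19 and 0.17 over all genes. Residuals from the group means correlated between pairs of the 42 genes with a median r of 0.70 over 15 muscle arrays and 0.61 over 15 kidney arrays, which share their arrays.

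Of the 42 genes, 0 were called in muscle for the difference of trap effects, the trap in mutants or the trap in wild type, where 0.169%, 6.33% and 0.0619% of all genes were called. The median difference of trap effects was -0.56, with 37 of 42 below 0. It was -0.21 without wild-type trap replicate 4 and -0.88 without wild-type trap replicate 3. The 95% interval of the difference ran from -2.87 to 1.31 for Mki67, from -2.73 to 1.04 for Top2a, from -2.24 to 0.36 for Cdk1, from -1.14 to 0.56 for Mcm2 and from -0.93 to 0.02 for Pcna. These intervals all include 0. For Mki67, Top2a, Cdk1 and Pcna they end below the fitted kidney difference of the same gene, and for Mcm2 the interval includes it. The kidney differences have errors of their own, which this does not count. Whether the difference of trap effects differs between the tissues was not tested.

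Mki67 in wild-type muscle was at 5.14, 5.94 and 7.24 untreated and at 7.95, 7.65, 5.58 and 9.30 with trap. In mutant muscle Mki67 was at 3.97, 5.21, 4.91 and 5.28 untreated and at 6.35, 6.39, 4.54 and 5.0 with trap. The treatments overlapped in both genotypes. The median trap effect in wild type was 0.66 over the 42 genes and 0.36 without replicate 4 of the treated wild type. That array came from animal 9, whose kidney had a mean of 5.81, among the lower ones of its group.

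Under PBS 2 of the 42 genes were lower in mutant muscle and 0 higher, where 9.04% of all genes were called lower. Aurka was at 6.89, 6.79 and 6.61 in wild type and at 5.37, 6.45, 5.52 and 5.73 in mutants, which do not overlap (-1.0 ± 0.20, adjusted p = 0.00366). The spindle protein Tpx2, an activator of that kinase, was lower too (-0.76 ± 0.22, adjusted p = 0.029). For 11 of the 42, or 26.2%, all mutant arrays lay below all wild-type arrays, as they did for 13.5% of all genes. The count of called genes was 4 without wild-type trap replicate 4 and 1 without mutant PBS replicate 1 or 4. Under trap Cks2 alone was lower in mutant muscle, 1 of 42, where 1.52% of all genes were called lower (-2.13 ± 0.46, adjusted p = 0.0306). Cks2 was at 7.65, 7.13, 6.10 and 8.77 in wild type and at 5.71, 5.87, 4.74 and 4.80 in mutants, which do not overlap. Without wild-type trap replicate 3, the lowest of its group, 23 of the 42 genes were called lower in mutant muscle under trap, and without replicate 1, 2 or 4 of that group 0 were. The shares of all genes called in those fits are not given here.

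In muscle the untreated mutants also had lower fibroblast and tendon genes, for 7 of 8 and 6 of 7, with fibroblast means of 8.46 to 9.26 against 10.87 to 10.98 in wild type. Satellite cell and myoblast genes were higher for 2 of 8. Erythroid precursor genes were lower for 1 of 4, with means of 6.37 to 6.86 on mutant PBS arrays, 7.17 to 7.74 on wild-type PBS arrays and 7.31 to 7.61 on mutant trap arrays. Macrophage genes were lower for 4 of 8 under PBS, and in wild type their means were 6.89 to 7.23 untreated and 7.46 to 8.06 with trap, where 0 of 8 were called. The actin 3 prime minus 5 prime signal lay between -0.06 and 0.14 in untreated mutant muscle and between 0.16 and 0.18 in untreated wild type. With it as a covariate 1 of the 42 genes was called under PBS and 0 under trap. The part of other cell types in these values was not tested.

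In a fit of both tissues with the animal as a random block, the effect of genotype under PBS differed between kidney and muscle for 4 of the 42 genes, all higher in kidney, where 19.7% of all genes were called higher. This share of the 42 genes is below that of all genes. The 4 genes were Cdc6 (1.54 ± 0.41, adjusted p = 0.00345), Cenpa, the centromeric histone (1.32 ± 0.50, adjusted p = 0.0398), Kif23, a cytokinesis motor (0.85 ± 0.29, adjusted p = 0.0205), and Rrm1 (0.77 ± 0.20, adjusted p = 0.00273). Cdc6 is a weak signal, with a mean of 4.20 over muscle arrays, under the 4.83 mean of proximal tubule genes there. The trap effect in mutants differed between the tissues for 0 of the 42 genes, with a median of 0.23 against -0.03 over all genes. The share of all genes called in that comparison is not given here, so the 0 cannot be set against it.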

How the data were processed

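Per the labels' protocols, QIAZOL extracts of snap-frozen tissue were biotin-labelled for Affymetrix mouse expression arrays. The authors deposited log2 intensities, already normalized by a method not stated in the labels or headers. The base of the logarithm was taken from their range. Of 35088 probe sets, 31552 had 1 gene symbol and were used, 825 had several and 2700 none; 11 more with 1 symbol were array controls and were left out. Each tissue was fitted with limma 3.58.1 in R 4.3.3, with 1 mean for each of 4 groups and 11 residual degrees of freedom, and p values were Benjamini-Hochberg adjusted over 17781 genes. Low values were kept. Precision is limited by the number of arrays. The labels give no batch; replicates are separate animals by the numbers in the titles.

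The 43 genes, their roles, the other lists and the motifs were chosen with earlier results of these data known. Genes named in full are, per tissue, up to 8 called in the difference of trap effects, the 4 largest called in each other comparison, Mki67, Top2a, Cdk1, Ccnb1, Mcm2 and Pcna, and the largest called of each role; other values are of genes chosen after they were seen. Of the other lists, up to 3 called genes per comparison are named. Promoter windows are RefSeq's first listed entry per symbol. The fits were tested on simulated data. Figures used matplotlib 3.10.9 in Python 3.11.15.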

Additional observations from a re-analysis of the deposited data

Results flagged for a closer look

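In kidney the trap effect differed between genotypes, by the test of the difference itself, for the 21 genes named in the report. The differences (log2, mutant minus wild type) were 2.85 for Esco2, 2.47 for Pbk, 2.21 for Kif20a, 2.10 for Ccnb2, 2.10 for Top2a, 2.04 for Bub1, 1.94 for Nusap1, 1.87 for Birc5, 1.80 for Mki67 and 1.79 for Cdk1. They were 1.63 for Cenpf, 1.58 for Cdca8, 1.56 for Tk1, 1.56 for Ccna2, 1.55 for Kif11, 1.53 for Ube2c, 1.48 for Cdc20, 1.40 for Rrm2, 1.29 for Aurka, 1.20 for Ttk and 1.07 for Mcm3. The effect of genotype under PBS differed between the tissues, kidney minus muscle, by 1.54 for Cdc6, 1.32 for Cenpa, 0.85 for Kif23 and 0.77 for Rrm1.

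A single array stood apart from the other 3 of its group in 4 of 87 combinations tested, each of a group with a named gene or with the mean of the genes. Chance gives about 5% for independent tests, but these share arrays and the genes vary together. Untreated wild type, with 3 arrays per tissue, was not tested, so its replicate 1 in kidney could not be flagged. In muscle Aurka was at 6.84 in wild-type trap replicate 4 against 6.29 to 6.33, and Top2a at 5.13 in mutant PBS replicate 4 against 4.32 to 4.38. In wild-type kidneys with trap Bub1 was at 3.77 in replicate 4 against 3.86 to 3.87, and Mcm2 at 8.58 in replicate 2 against 8.01 to 8.08.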

How the results depend on the processing

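With the genes above the median level only, the kidney counts were 10 (difference of trap effects), 0 (trap in mutants), 7 (trap in wild type), 7 (genotype under PBS) and 18 (genotype under trap), since fewer of the 42 genes were tested. With array weights they were 34, 3 and 28 for the first 3 of these, and 1 for the muscle difference of trap effects, 1 for trap in mutant muscle and 20 for genotype under trap in muscle. In fits of only the groups compared the kidney trap counts were 8 in mutants and 2 in wild type, and the muscle counts 1 for trap in mutants, 7 for genotype under PBS and 0 under trap. The replicate numbers did not pair the arrays (residual r between -0.12 and 0.34 in kidney and between -0.24 and 0.30 in muscle). With a replicate block the kidney counts were 12 for the difference of trap effects, 2 for trap in mutants and 6 for trap in wild type. The actin covariate gave 3 for trap in mutant kidney, and 1 and 0 for genotype under PBS and trap in muscle. The 18S covariate, chosen after its levels were seen, gave 11, 0 and 0 for the kidney difference and the trap in mutants and wild type, and 1 for genotype under PBS in muscle. Averaging a gene's probe sets gave 0 for genotype under trap in muscle and 2 for the difference between tissues under PBS, which was 1 with the genes above the median. The trended prior gave 0 for genotype under trap in muscle. Under quantile normalization and median centring each count kept within 1.5 times. The cause of these shifts was not tested. The shares of all genes called under these settings, or with an array left out, are not given here. The counts therefore cannot be set against them.

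Leaving out each array, the kidney counts ranged from 13 to 28 (difference of trap effects), 0 to 7 (trap in mutants), 5 to 22 (trap in wild type), 10 to 15 (genotype under PBS) and 38 to 40 (under trap). In muscle they ranged from 0 to 1, 0 to 1, 0 to 0, 1 to 4 and 0 to 23 in the same order, the first pair reaching 1 without mutant PBS replicate 2. For genes named by the rule, 57 calls were recomputed under these settings, giving 1237 values that kept the call, 157 that lost it and 0 of opposite sign.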
